A study of Homo sapiens with 24 samples.

Results

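The response of PC9 cells to paclitaxel was set against that of H1975 cells, gene by gene, as the log2 difference (PC9 paclitaxel minus PC9 control) minus (H1975 paclitaxel minus H1975 control). Both are established lung adenocarcinoma lines with mutant EGFR. PC9 cells had received 0.3 nM paclitaxel and H1975 cells 1 nM, each for 24 h beside an untreated control of the same line, with 3 libraries per group. These are 12 of the 24 messenger RNA libraries of the series, which also holds almonertinib and combination groups. Because the dose differed with the line, the effects of line and dose cannot be told apart, and every value below compares 0.3 nM in PC9 with 1 nM in H1975. No label tells whether the 3 libraries in each group stem from cultures grown apart. The p-values below thus rest on library-to-library spread, part or all of which may be technical. Of 19702 genes in the table, 13380 had counts high enough to test, and 8157 of those averaged at least 5 CPM (counts scaled to a common library size) in the controls of each line. These 8157 genes are called genes expressed in both lines. At that limit C1D lay just inside with 5.0009 CPM in its lower line and ARFGEF1 just outside with 4.9972 CPM.

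Paclitaxel binds β-tubulin and stabilises microtubules, so that the spindle is disturbed when cells enter mitosis. Cells held in or slipping out of a disturbed mitosis can form micronuclei, whose DNA can be sensed in the cytosol and induce interferon. Interferon acts through transcription factors that bind interferon-stimulated response elements in the promoters of antiviral genes. Sterol synthesis genes are driven by SREBP2 together with the CCAAT-binding factor NF-Y.

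Totals ran from 14232299 to 24245314 counts per library, and 13801 to 14502 genes were detected in each. All 8 epithelial markers were above 1 CPM in every group, with summed levels of 16460 to 18650 CPM in PC9 paclitaxel libraries, against 23040 to 26640 CPM in PC9 controls, and of 10260 to 11230 CPM in H1975 paclitaxel libraries, against 11910 to 15400 CPM in H1975 controls. Leukocyte, fibroblast and endothelial markers summed to at most 18.2 CPM. Libraries differed in how strongly counts depended on transcript length and GC content. Across genes, each library's deviation from the mean had a Spearman correlation with GC content of −0.527 to −0.305 in PC9 paclitaxel libraries, against 0.32 to 0.547 in PC9 controls. In H1975, control library 3 (−0.593) and paclitaxel library 1 (−0.371) stood apart from the other 4 (0.111 to 0.486), and the share of mitochondrial counts was 2.5% in that paclitaxel library, against 0.977% to 1.19% in the other 5. Results are also given from a fit in which each library's trend on length and GC content was removed (called trend-removed), and without those H1975 libraries, for the genes whose call either changed or whose difference it moved by over 1.5 times, and for the larger moves in the counts of gene lists. The trend-removed fit called more genes in general, 937 of 13380 in H1975 against 245 as fitted, and 3658 against 2290 for the difference, and its list counts are to be read against that. In bulk RNA, fewer cells of a state and less RNA per cell cannot be told apart.

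The response was wider in PC9. Among the genes expressed in both lines, 3168 changed in PC9 under paclitaxel (38.8%, edgeR adjusted p under 0.05), 1392 upwards (17.1%) and 1776 downwards (21.8%). Of all 13380 genes tested 5058 changed in PC9 (37.8%), and there more rose (2871, 21.5%) than fell (2187, 16.3%). In H1975 151 changed (1.85%, against 1.83% of all genes tested), 68 upwards (0.834%) and 83 downwards (1.02%). The median size of the log2 effect was 0.34 in PC9 and 0.13 in H1975. The libraries of paclitaxel and control did not overlap in 5814 genes (71.3%) in PC9 and in 1044 (12.8%) in H1975. The biological coefficient of variation between libraries was 0.0836 in PC9 and 0.170 in H1975, each estimated within its line, whereas the tests used one estimate of spread over all groups.

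The difference between the lines was called for 1523 of the 8157 genes (18.7%), against 2290 of all 13380 tested (17.1%). It was positive for 747 of them (9.16%) and negative for 776 (9.51%). Of the 1523, 1328 (87.2%) had the larger effect in PC9, 1335 were also called in PC9 and 81 in H1975, and 146 were called in neither line alone. A difference of at least 2-fold was called for 591, 392 positive and 199 negative. Across the 8157 genes the effects of the lines had a Spearman correlation of −0.01, or 0.14 without the H1975 libraries that stood apart. The genes are not independent replicates, and their effects share the length and GC trends of their libraries. The genes called positive were longer and poorer in GC (median transcript length 3686 bases, GC content 43.9%) than those called negative (2003 bases, 52.2%), with 2484 bases and 52.2% over all 8157.

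The balance of positive and negative calls depended on the scaling. Positive calls were 49% of the calls as fitted, 35.6% with RLE size factors (553 of 1552) and 57.7% with the trend removed (1588 positive and 1162 negative of 2750). The median difference of the 8157 genes was −0.07 as fitted, −0.16 with RLE factors and 0.05 trend-removed, a shift of over 0.1 that each value below carries. Of the 1523 calls 1326 were called again with the trend removed. Leaving out H1975 control library 3 left 744 calls, and leaving out H1975 paclitaxel library 1 gave 2099. Without paclitaxel library 2 of H1975 there were 881 calls, without its library 3 there were 829, and without PC9 control library 3 there were 796. Without PC9 paclitaxel library 1 there were 956 and without library 2 there were 940. In 612 genes the call held whichever of the 12 libraries was left out, and the genes named first below were taken from these.

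**Figure D1:**
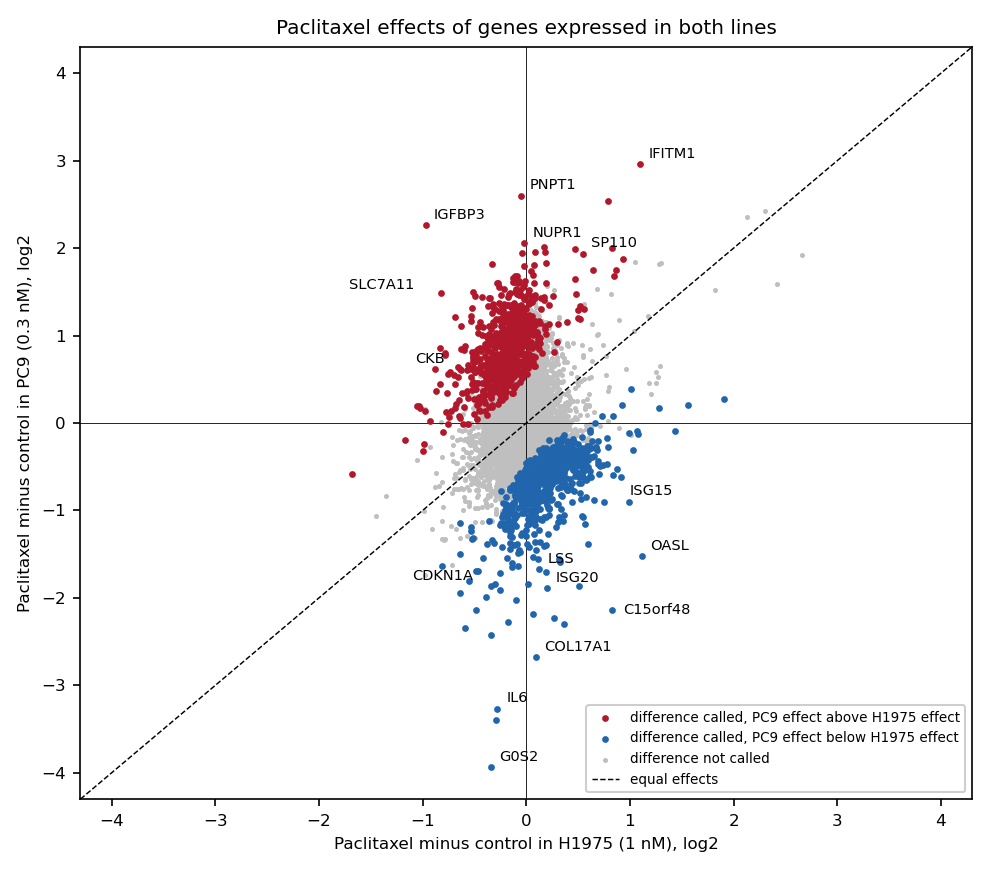
Each point is one of the 8157 genes expressed in both lines, with its log2 paclitaxel effect in H1975 on the horizontal axis and in PC9 on the vertical axis. Red and blue points are the 747 and 776 genes whose difference was called positive or negative, the dashed line marks equal effects, and the cloud is taller than it is wide (median size of effect 0.34 in PC9 and 0.13 in H1975).

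The genes with the highest difference rose in PC9 and were not called in H1975 as fitted. This holds for all 10 that were named by size, whose paclitaxel and control libraries did not overlap in PC9. In 4 of the 10 the H1975 libraries did not overlap either. With the trend removed these 4 were called as falling in H1975, SLC7A11 (−0.79), MT1X (−0.71), TGFBR1 (−0.63) and STK39 (−0.47). PNPT1 encodes a mitochondrial exoribonuclease that degrades RNA and keeps double-stranded RNA inside mitochondria. Its levels were 47.9, 45.3 and 45.3 CPM in PC9 paclitaxel libraries, against 8.52, 7.72 and 6.51 CPM in PC9 controls. In H1975 they were 17.0, 15.6 and 14.1 CPM under paclitaxel, against 14.8, 15.6 and 17.8 CPM in controls. The PC9 groups lay far apart and the H1975 groups overlapped, giving a difference of 2.65 ± 0.36 (log2 ± SE, adjusted p = 4.4e-05) and a 6.06-fold increase in PC9.

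IGFBP3, a secreted binder of insulin-like growth factors, had 78.5, 101 and 69.3 CPM in PC9 paclitaxel libraries, against 13.6, 20.3 and 18.0 CPM in controls. Levels in H1975 were 23.6, 27.1 and 23.7 CPM under paclitaxel, against 24.5, 19.0 and 102 CPM in controls, where the high value is control library 3, one of the libraries that stood apart. The difference was 3.23 ± 0.71 (adjusted p = 0.00426) and fell to 2.05 without those libraries (adjusted p = 0.0351). NUPR1, a stress-induced chromatin protein, had 21.8, 29.5 and 30.6 CPM in PC9 paclitaxel libraries, against 5.12, 7.18 and 7.51 CPM in controls. Its H1975 levels were 7.16, 9.69 and 9.78 CPM under paclitaxel and 10.9, 8.63 and 7.51 CPM in controls, and these overlapped. The difference was 2.07 ± 0.32 (adjusted p = 0.000186).

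SLC7A11 encodes the cystine transporter that feeds glutathione synthesis. It had 65.0, 74.5 and 63.1 CPM in PC9 paclitaxel libraries, against 27.2, 27.6 and 17.7 CPM in controls. In H1975 its levels were 4.33, 3.65 and 4.21 CPM under paclitaxel, against 6.01, 6.15 and 9.35 CPM in controls, lower in every treated library. That fall was not called as fitted (−0.82 ± 0.27, adjusted p = 0.15) but was with the trend removed (−0.79, adjusted p = 0.00054). The difference of 2.30 ± 0.36 was 1.32 with the trend removed (adjusted p = 6.42e-06). The metallothionein MT1X, which binds zinc and copper, had a difference of 2.01 ± 0.34, with 15.5, 17.2 and 13.4 CPM in PC9 paclitaxel libraries, against 7.32, 3.18 and 5.66 CPM in PC9 controls. STK39, a kinase that regulates chloride cotransporters, had a difference of 1.94 ± 0.22 (adjusted p = 3.6e-06) and rose 2.73-fold in PC9. The other 4 were ARHGAP29, a GTPase-activating protein for RhoA (2.15 ± 0.41), the splicing regulator MBNL2 (1.99 ± 0.45), the TGF-β receptor kinase TGFBR1 (1.90 ± 0.38) and the ERBB2-binding scaffold ERBIN (1.88 ± 0.40). With the trend removed MBNL2, TGFBR1 and ERBIN stayed called, with differences of 1.17, 1.13 and 1.17, each over 1.5 times smaller.

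The genes with the lowest difference fell in PC9. All 10 were called there, with libraries that did not overlap, and OASL and C15orf48 also rose in H1975. With the trend removed IGFBP6 was called as rising in H1975 too (0.46). G0S2, an inhibitor of the triglyceride lipase ATGL, had 0.957, 0.836 and 0.854 CPM in PC9 paclitaxel libraries, against 11.1, 14.1 and 15.8 CPM in controls. Levels in H1975 were 45.4, 89.6 and 110 CPM under paclitaxel, against 99.2, 130 and 82.0 CPM in controls, and these groups overlapped. The difference of −3.60 ± 0.41 (adjusted p = 4.59e-06) was the most negative in the set. IL6, the inflammatory cytokine, had 5.78, 6.73 and 7.23 CPM in PC9 paclitaxel libraries, against 41.7, 69.5 and 78.9 CPM in PC9 controls. In H1975 it was low in both groups, with 4.84, 4.32 and 3.26 CPM under paclitaxel and 4.19, 5.64 and 5.29 CPM in controls. Its difference was −2.98 ± 0.31 (adjusted p = 1.98e-06). IL11, a cytokine of the same receptor family, had 67.5, 60.9 and 60.5 CPM in PC9 paclitaxel libraries, against 267, 319 and 329 CPM in PC9 controls. It differed by −2.10 ± 0.27 between the lines.

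COL17A1, the hemidesmosomal collagen that anchors basal epithelial cells, had 3.91, 3.89 and 3.36 CPM in PC9 paclitaxel libraries, against 24.2, 23.4 and 24.2 CPM in PC9 controls. H1975 libraries had 21.4, 16.9 and 16.2 CPM under paclitaxel, against 14.5, 18.8 and 17.8 CPM in controls. Control levels were higher in PC9 than in H1975, and the paclitaxel and control libraries separated in PC9 alone. The difference was −2.77 ± 0.21 (adjusted p = 1.44e-08). LAMA3, the laminin chain of the same junctions, fell in PC9 (−1.63 ± 0.13) and differed by −1.55 ± 0.18. The remaining 4 were SLC31A2, a low-affinity copper transporter (−2.67 ± 0.23), the phospholipase gene PLCG2 (−2.49 ± 0.25), the growth factor binder IGFBP6 (−2.37 ± 0.27) and SNPH, which docks mitochondria to microtubules in axons (−2.25 ± 0.25).

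**Figure D2:**
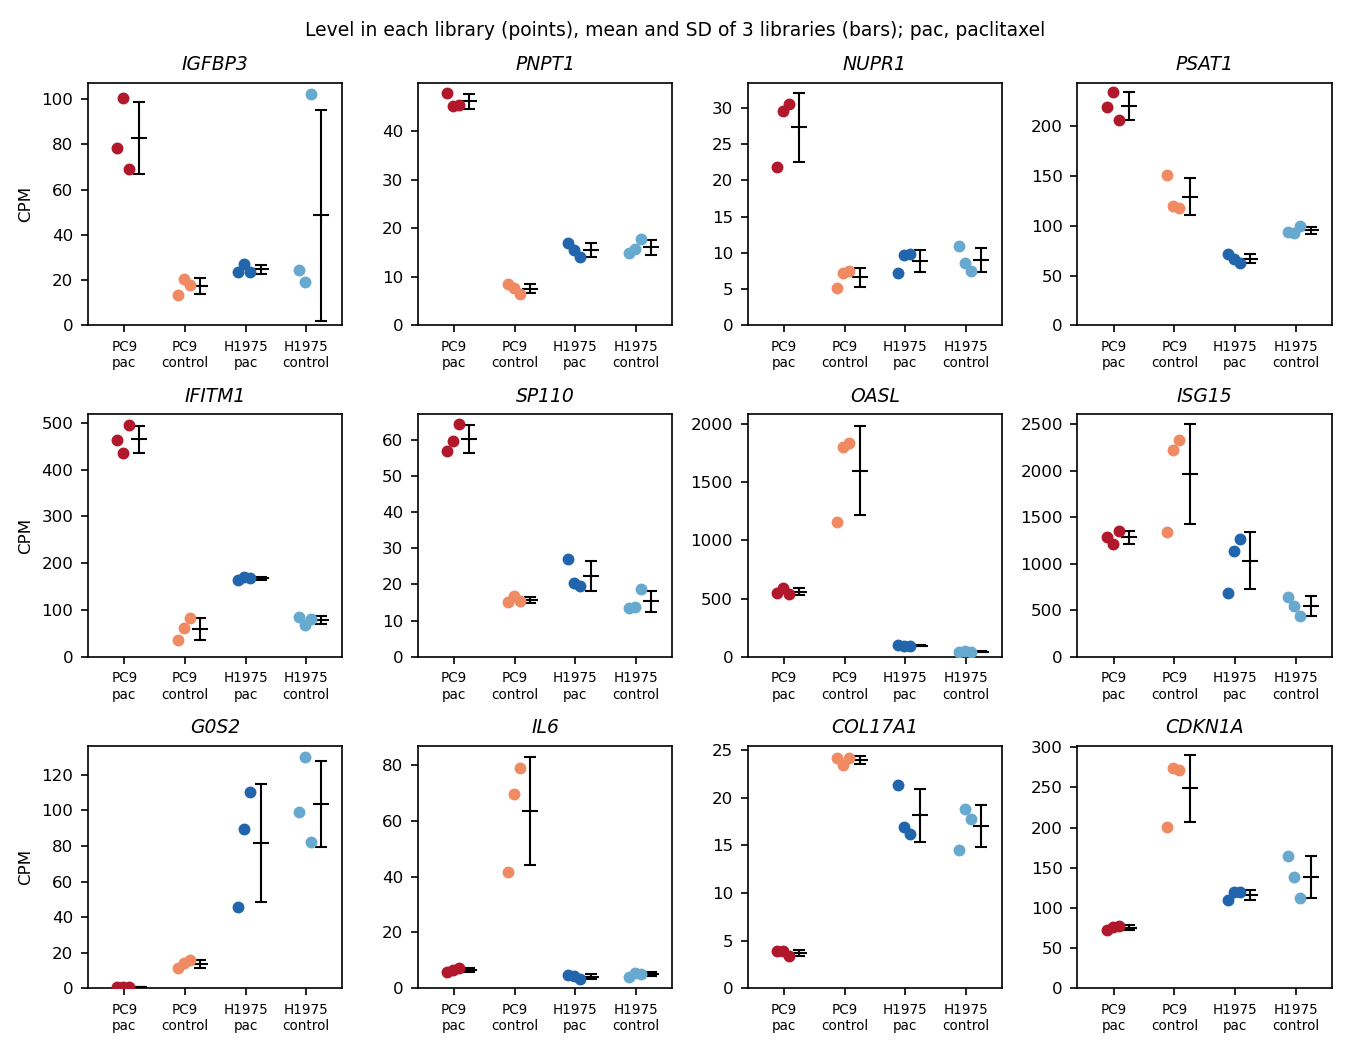
Levels of 12 genes in CPM (linear axis from 0), with PC9 paclitaxel, PC9 control, H1975 paclitaxel and H1975 control libraries from left to right. Points are the 3 libraries of a group and bars the mean and SD, and in IL6, G0S2, COL17A1 and CDKN1A the PC9 paclitaxel libraries lie below every PC9 control library.

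Genes called in opposite directions were few, and only the 151 genes called in H1975 could be counted as such. Of the 88 genes called in both lines, 62 moved in the same direction, which is 41.1% of the H1975 calls and 1.96% of the PC9 calls, and 26 moved in opposite directions. The difference held in every leave-out for these 26, of which 9 rose in PC9 and fell in H1975 and 17 fell in PC9 and rose in H1975. OASL, an interferon-induced protein related to oligoadenylate synthetases, had 545, 592 and 537 CPM in PC9 paclitaxel libraries, against 1156, 1807 and 1838 CPM in PC9 controls. In H1975 it had 105, 91.8 and 93.5 CPM under paclitaxel, against 43.4, 50.7 and 40.2 CPM in controls. The libraries separated in both lines and in opposite directions, by −1.52 ± 0.17 in PC9 and 1.11 ± 0.17 in H1975, a difference of −2.63 ± 0.24 (adjusted p = 1.68e-07).

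C15orf48, a mitochondrial protein induced in inflammation, had 11.96, 13.2 and 10.6 CPM in PC9 paclitaxel libraries, against 35.0, 58.2 and 64.4 CPM in PC9 controls. Its H1975 levels were 84.2, 99.7 and 126 CPM under paclitaxel, against 58.7, 55.9 and 59.3 CPM in controls, and neither line's groups overlapped. The difference was −2.96 ± 0.29 (adjusted p = 9.13e-07). The transcription factor CEBPD differed by −1.43 ± 0.24 and CIART, a repressor of the circadian clock, by −1.89 ± 0.34. Among the genes that rose in PC9 and fell in H1975 was PSAT1, an enzyme of serine synthesis. It had 220, 235 and 206 CPM in PC9 paclitaxel libraries, against 151, 120 and 118 CPM in PC9 controls. The H1975 levels were 71.2, 66.9 and 62.1 CPM under paclitaxel, against 93.5, 93.0 and 99.4 CPM in controls, again without overlap, and the difference was 1.28 ± 0.18 (adjusted p = 5e-05).

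CKB, the brain-type creatine kinase, had 284, 276 and 307 CPM in PC9 paclitaxel libraries, against 194, 180 and 193 CPM in PC9 controls. H1975 cells had 392, 451 and 458 CPM under paclitaxel, against 760, 687 and 567 CPM in controls. The difference was 1.24 ± 0.23 (adjusted p = 0.00126). The others named were the adrenergic receptor ADRA1B (1.58 ± 0.25), the placental growth factor PGF (1.498 ± 0.30) and the membrane-bound transcription factor MYRF (1.30 ± 0.21). All 10 differences named as opposite stayed called without the H1975 libraries that stood apart. The H1975 effect on its own was then called in 4 of the 10 (OASL, C15orf48, ISG15 and CEBPD), and in OASL alone did it hold in every leave-out.

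Many interferon-stimulated genes rose in both lines. Of 54 measured, 37 rose and 4 fell in PC9, against 21.5% and 16.3% of all genes tested. In H1975 28 rose and none fell, against 1.02% and 0.807%, and 21 rose in both lines. The trend-removed fit called 37 as rising in PC9 and 48 in H1975, so which line had more calls depended on that choice. The median effect was 1.42 in PC9 and 1.02 in H1975, against 0.00 and −0.01 over all genes tested. The difference was called positive for 13 and negative for 9 of the 54, against 9.9% and 7.21% of all genes tested, with a median of 0.17 against 0.02. IFI6, an interferon-induced mitochondrial protein, showed the shared part of the response. It had 1491, 1426 and 1454 CPM in PC9 paclitaxel libraries, against 187, 316 and 313 CPM in PC9 controls, and 339, 434 and 501 CPM in H1975 paclitaxel libraries, against 89.7, 71.3 and 97.0 CPM in H1975 controls. Its effects were 2.42 ± 0.19 and 2.30 ± 0.19, with a difference of 0.12 ± 0.26 (adjusted p = 0.798). IFI6, IFIT1 and IRF1 were picked as examples after their values were seen.

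Other members divided by line. IFITM1, a membrane protein that blocks viral entry, had 463, 436 and 495 CPM in PC9 paclitaxel libraries, against 35.1, 62.0 and 82.6 CPM in PC9 controls. In H1975 it had 165, 171 and 168 CPM under paclitaxel, against 86.0, 68.9 and 80.4 CPM in controls. It rose in both lines without overlap, and more in PC9 (difference 1.86 ± 0.28, adjusted p = 0.00014). Its annotated span lies within that of IFITM2, a near copy, so reads may be shared between them. SP110, a nuclear body protein, had a difference of 1.39 ± 0.22, with 56.8, 59.6 and 64.3 CPM in PC9 paclitaxel libraries, against 15.1, 16.8 and 15.3 CPM in PC9 controls.

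Negative differences were seen in effector genes of the same response. ISG20, an interferon-induced exonuclease, had 126, 118 and 114 CPM in PC9 paclitaxel libraries, against 325, 478 and 520 CPM in PC9 controls. Levels in H1975 were 24.7, 38.4 and 36.4 CPM under paclitaxel, against 33.6, 30.8 and 22.5 CPM in controls. It fell in PC9 and overlapped between the groups of H1975 (difference −2.08 ± 0.27, adjusted p = 2.52e-05). ISG15, the ubiquitin-like modifier, had 1290, 1209 and 1348 CPM in PC9 paclitaxel libraries, against 1343, 2217 and 2323 CPM in PC9 controls, where control library 1 overlapped the treated ones. Its H1975 levels were 687, 1142 and 1265 CPM under paclitaxel, against 646, 550 and 441 CPM in controls. The difference was −1.53 ± 0.31 (adjusted p = 0.00279), and with the trend removed −0.99, where the PC9 effect was no longer called (−0.16, adjusted p = 0.367). IFIT1, which binds viral RNA caps, rose in H1975 (1.91 ± 0.26) and was not called in PC9 (0.27 ± 0.24), a difference of −1.64 ± 0.34. The interferon genes that fell in PC9 were OASL, ISG20, ISG15 and IRF1, an activator of interferon genes (−0.63 ± 0.18).

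PC9 control library 1 lay below the other PC9 controls in this list, with a median log2 level of −0.36 relative to each gene's mean in the PC9 controls, against 0.20 and 0.16 in the other PC9 controls. Without it 8 of the 54 differences were positive and 15 negative, and the median was −0.05. Positive differences numbered 8 also without H1975 paclitaxel library 2 or 3, and negative ones 5 without PC9 control library 3. RLE factors and DESeq2 each gave 14 negative differences, and the trend-removed fit 15. The balance of positive and negative differences in the list thus changed with the setting and with single libraries.

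The promoters of IFITM1, ISG15 and ISG20 are shown because these genes differed between the lines in opposite directions while each holds the interferon-stimulated response element. The windows run from 250 bases before to 50 bases after the first listed RefSeq start (GRCh38.p14, coding strand), and capitals mark matches on either strand of GAAA repeated after a gap of any 2 bases. Overlapping matches are joined in one stretch of capitals.
IFITM1, chr11:313790-314089, plus strand: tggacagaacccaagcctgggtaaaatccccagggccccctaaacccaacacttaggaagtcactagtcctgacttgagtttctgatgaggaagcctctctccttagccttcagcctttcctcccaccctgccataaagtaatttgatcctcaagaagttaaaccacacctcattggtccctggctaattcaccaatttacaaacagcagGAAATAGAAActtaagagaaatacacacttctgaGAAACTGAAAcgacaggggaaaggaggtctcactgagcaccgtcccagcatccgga
ISG15, chr1:1013247-1013546, plus strand: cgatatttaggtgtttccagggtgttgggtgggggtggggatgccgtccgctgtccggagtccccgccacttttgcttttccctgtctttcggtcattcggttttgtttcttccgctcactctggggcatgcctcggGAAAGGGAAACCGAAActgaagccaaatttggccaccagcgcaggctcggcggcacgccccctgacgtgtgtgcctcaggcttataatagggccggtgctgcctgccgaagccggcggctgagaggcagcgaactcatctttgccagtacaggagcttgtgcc
ISG20, chr15:88638766-88639065, plus strand: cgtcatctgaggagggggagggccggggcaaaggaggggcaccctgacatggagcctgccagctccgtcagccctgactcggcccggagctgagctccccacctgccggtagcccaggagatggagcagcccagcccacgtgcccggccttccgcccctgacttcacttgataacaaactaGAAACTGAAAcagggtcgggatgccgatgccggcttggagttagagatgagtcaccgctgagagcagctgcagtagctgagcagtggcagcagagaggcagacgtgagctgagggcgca
ISG15 holds 2 overlapping matches, the first starting 113 bases before the start site, ISG20 holds 1 at 69 bases and IFITM1 holds 2, the first at 40 bases. The motif was found in 996 of 27305 promoters of the table (3.65%), in 182 of 6744 matched genes expressed in both lines (2.7%) and in 26 of 42 matched interferon genes (61.9%). Among the interferon genes called for the difference it was in 4 of 11 matched with a positive and 5 of 7 matched with a negative difference.

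Of 17 nucleic acid sensor genes 7 rose and 2 fell in PC9, against 21.5% and 16.3% of all genes tested, and 3 rose in H1975, against 1.02%. The H1975 count was 7 with the trend removed and 1 without the H1975 libraries that stood apart. Differences were positive for 3 and negative for 1, against 9.9% and 7.21% of all genes tested, or 5 and 2 with the trend removed. EIF2AK2, the kinase PKR that is activated by double-stranded RNA, had 104, 109 and 98.9 CPM in PC9 paclitaxel libraries, against 26.4, 31.0 and 21.2 CPM in PC9 controls (difference 1.52 ± 0.31, adjusted p = 0.00245, or 0.85 with the trend removed). DHX58, the RNA sensor LGP2, had 54.9, 54.6 and 62.9 CPM in PC9 paclitaxel libraries, against 54.7, 80.0 and 79.5 CPM in PC9 controls, and these overlapped. It rose in H1975 to 25.4, 22.9 and 24.2 CPM under paclitaxel, against 12.1, 11.6 and 11.9 CPM in controls, so the difference was −1.34 ± 0.22 (adjusted p = 0.000382). Of 22 antigen presentation genes 11 rose in PC9 and 8 in H1975 (14 with the trend removed), with 4 in common and median effects of 0.48 and 0.41. B2M, the light chain of class I molecules, differed by −0.66 ± 0.22 and the peptidase ERAP2 by 1.03 ± 0.32, and neither call held in every leave-out. With the trend removed ERAP2 was 0.52, and it was not called without the H1975 libraries that stood apart (adjusted p = 0.112). Differences were positive for 1 and negative for 2 antigen presentation genes as fitted, against 9.9% and 7.21% of all genes tested. With the trend removed 10 were positive and 2 negative, in a fit that called 3658 of all 13380 genes in either direction.

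Of 32 NF-κB targets and cytokines measured, 2 rose and 13 fell in PC9, against 21.5% and 16.3% of all genes tested, and 1 rose and 2 fell in H1975, against 1.02% and 0.807%. The trend-removed fit called 5 as rising in PC9. Differences were positive for 1 and negative for 11, against 9.9% and 7.21%, with a median of −0.67 against 0.02 over all genes tested, and between 9 and 11 were negative whichever library was left out. TNFAIP3, the deubiquitinase A20 that restrains NF-κB, had 34.3, 31.1 and 30.7 CPM in PC9 paclitaxel libraries, against 70.0, 94.5 and 86.5 CPM in PC9 controls. H1975 libraries had 8.23, 7.66 and 6.87 CPM under paclitaxel, against 7.46, 7.79 and 8.98 CPM in controls, and the difference was −1.29 ± 0.18. TNFAIP3, CCL5, IFNL1 and IFNB1 were picked after their values were seen. CCL5, a T cell chemokine, fell in PC9 (132, 170 and 149 CPM under paclitaxel, against 182, 446 and 432 CPM in controls) and rose in H1975 (5.78, 6.67 and 6.37 CPM, against 3.46, 3.27 and 2.46 CPM). The interferon ligand IFNL1 had 3609 raw counts in the PC9 paclitaxel libraries together, against 10554 in the PC9 controls, and 25 against 14 in H1975. IFNB1 had 185 raw counts in PC9 paclitaxel libraries, against 238 in PC9 controls, and 6 against 0 in H1975.

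Of 26 genes of cholesterol synthesis and uptake, 18 fell and 1 rose in PC9, against 16.3% and 21.5% of all genes tested. None was called in H1975, where 1.83% of all genes were. The median effect was −0.84 in PC9 and −0.30 in H1975, and the difference was positive for 1 and negative for 7, against 9.9% and 7.21%, with a median of −0.51. In H1975 the paclitaxel and control libraries did not overlap in 11 of the 26, against 12.8% of genes expressed in both lines. The list's median log2 level relative to the H1975 controls was −0.35, −0.29 and −0.18 in H1975 paclitaxel libraries. It was 0.01, 0.06 and −0.06 in H1975 controls, so the list was lower in each treated H1975 library. LSS, the cyclase that makes lanosterol, had 34.1, 40.3 and 43.7 CPM in PC9 paclitaxel libraries, against 58.4, 148 and 170 CPM in PC9 controls. In H1975 it had 71.6, 75.3 and 73.7 CPM under paclitaxel, against 75.4, 72.2 and 54.4 CPM in controls. The PC9 groups did not overlap although control library 1 lay much closer to the treated libraries than the other controls did, and the difference was −1.80 ± 0.34 (adjusted p = 0.00126). HSD17B7, a later enzyme of the pathway, had 7.31, 8.15 and 6.43 CPM in PC9 paclitaxel libraries, against 11.4, 26.9 and 27.7 CPM in controls, with a difference of −1.91 ± 0.34. ACSS2, which makes acetyl-CoA from acetate for lipid synthesis, showed the same order of libraries in PC9 and differed by −1.39 ± 0.32. It was the one called gene of 16 for fatty acid synthesis.

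That control library was also low in the median of the list, though not in every member. The median log2 level of the list was −0.80 in PC9 control library 1, against 0.38 and 0.42 in the other PC9 controls and −0.79 to −0.65 in the PC9 paclitaxel libraries. Without it 17 of the 26 differences were negative, 21 genes fell in PC9 and the median difference was −0.88. With the trend removed 11 were negative and none positive, since LBR, a sterol reductase and lamin receptor (0.73 ± 0.26), then had a difference of 0.03. LBR was also not called without the H1975 libraries that stood apart (adjusted p = 0.147). Its level was not low in PC9 control library 1, with 44.9 CPM against 39.5 and 34.8 CPM in the other PC9 controls.

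The promoters of LSS and HSD17B7 are shown for the CCAAT box, on which NF-Y acts beside SREBP2. Windows and build are as above, and capitals mark CCAAT or, on the other strand, ATTGG.
LSS, chr21:46228725-46229024, minus strand: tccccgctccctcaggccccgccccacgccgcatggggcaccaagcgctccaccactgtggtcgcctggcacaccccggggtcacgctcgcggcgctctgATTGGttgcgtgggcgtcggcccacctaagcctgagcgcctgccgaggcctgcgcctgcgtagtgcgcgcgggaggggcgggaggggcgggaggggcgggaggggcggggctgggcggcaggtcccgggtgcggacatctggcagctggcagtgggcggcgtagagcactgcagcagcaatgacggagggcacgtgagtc
HSD17B7, chr1:162790452-162790751, plus strand: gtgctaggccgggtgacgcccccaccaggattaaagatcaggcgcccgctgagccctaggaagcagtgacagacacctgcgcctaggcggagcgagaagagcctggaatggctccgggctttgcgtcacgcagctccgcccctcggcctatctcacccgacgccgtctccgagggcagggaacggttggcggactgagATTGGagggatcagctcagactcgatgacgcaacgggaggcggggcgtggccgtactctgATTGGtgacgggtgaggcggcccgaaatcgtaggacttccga
LSS holds 1 match, 150 bases before the start site, and HSD17B7 holds 2, the first at 52 bases. The letters were found in 15 of 19 matched genes of the list (78.9%), against 9747 of 27305 promoters of the table (35.7%). Among matched genes expressed in both lines the share was 225 of 617 (36.5%) with a positive and 289 of 650 (44.5%) with a negative difference, against 36.9% of all 6744.

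Of 30 genes of amino acid synthesis and ATF4 targets, 10 rose and 6 fell in PC9, against 21.5% and 16.3% of all genes tested, and none rose and 5 fell in H1975, against 1.02% and 0.807%. The trend-removed fit called 17 as rising in PC9 and 12 as falling in H1975, and without the H1975 libraries that stood apart 3 fell in H1975. Differences were positive for 11 and negative for 3, against 9.9% and 7.21%, with a median of 0.43, and 10 to 12 were positive whichever library was left out. With the trend removed 20 were positive and 3 negative, with a median of 0.60. PSAT1, NUPR1 and SLC7A11, described above, belong here. WARS1, the tryptophanyl-tRNA synthetase that interferon-γ also induces, went against the list. It had 220, 230 and 215 CPM in PC9 paclitaxel libraries, against 349, 499 and 507 CPM in PC9 controls, and 259, 217 and 200 CPM in H1975 paclitaxel libraries, against 219, 250 and 217 CPM in H1975 controls. The difference was −1.01 ± 0.20. The transcription factor ATF5 fell in PC9 as well (difference −1.17 ± 0.24, adjusted p = 0.00307).

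Of 30 EGFR and MAPK target genes, 15 fell in PC9 and 8 in H1975, with 6 in common and median effects of −0.34 in each line, while 4 rose in PC9. The shares of all genes tested that fell were 16.3% in PC9 and 0.807% in H1975, and 21.5% rose in PC9. In the trend-removed fit 13 fell in each line, and the median effect was −0.17 in PC9 and −0.34 in H1975. The difference was positive for 5 and negative for 4, against 9.9% and 7.21% of all genes tested. It was positive for 3 when H1975 control 3, H1975 paclitaxel 2 or 3, PC9 control 3 or PC9 paclitaxel 1 or 2 was left out. KLF4, an epithelial transcription factor, had 79.9, 78.6 and 71.2 CPM in PC9 paclitaxel libraries, against 151, 203 and 197 CPM in PC9 controls. The H1975 levels were 22.4, 21.7 and 21.2 CPM under paclitaxel, against 20.8, 22.3 and 23.8 CPM in controls, and the difference was −1.23 ± 0.16. KLF6 of the same family rose in PC9 (0.45 ± 0.13) and fell in H1975 (−0.83 ± 0.12), a difference of 1.28 ± 0.18 (adjusted p = 4.95e-05). Among 13 EGF family genes the difference was positive for 3 and negative for 1, against the same shares of all genes tested. Without H1975 control library 3 it was positive for 1. ERRFI1, a feedback inhibitor of EGFR, had 105, 101 and 93.6 CPM in PC9 paclitaxel libraries, against 54.4, 65.1 and 63.2 CPM in PC9 controls, and differed by 1.23 ± 0.23. EGFR itself had 900, 810 and 740 CPM in PC9 paclitaxel libraries, against 736, 678 and 630 CPM in PC9 controls. H1975 cells had 82.3, 70.1 and 69.5 CPM under paclitaxel, against 98.7, 107 and 142 CPM in controls, and the difference of 0.91 ± 0.24 (adjusted p = 0.0137) did not hold in every leave-out.

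Of 33 matrix, TGF-β and YAP genes 15 fell in PC9 and 9 in H1975, 6 in common, against 16.3% and 0.807% of all genes tested. The H1975 count was 15 with the trend removed and 4 without the H1975 libraries that stood apart. The difference was positive for 6 and negative for 7, against 9.9% and 7.21%. The integrin chain ITGA6 differed by 1.26 ± 0.31 while COL17A1 and LAMA3, of the same adhesion complex, had negative differences. Squamous and keratin genes were low in H1975, and 4 of 21 were expressed in both lines. Among all 21, 3 rose and 14 fell in PC9 and 2 fell in H1975. The difference was positive for 2 and negative for 7, or for 4 without H1975 paclitaxel library 2 and 3 without library 3. S100A9, a calcium-binding alarmin, had 233, 266 and 241 CPM in PC9 paclitaxel libraries, against 294, 532 and 509 CPM in PC9 controls, and differed by −1.43 ± 0.37, or −0.79 with the trend removed. The basal keratin KRT15 differed by 0.95 ± 0.25.

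None of 14 mitotic kinesin genes, 38 other mitotic genes and 41 replication and G1/S genes was called in H1975, with median effects of −0.01, 0.00 and −0.11. Of all genes tested 1.83% were called there, and at that share few calls could fall in lists of this size. The trend-removed fit called 1 mitotic gene as rising in H1975, and 1 replication gene as rising and 1 as falling. Of 16 G1 regulators 2 fell there. In PC9 7 kinesin, 15 mitotic and 14 replication genes rose and 3, 11 and 4 fell, against 21.5% and 16.3% of all genes tested. The mitotic genes that rose were 9 with the trend removed. Among the 9 kinesin genes expressed in both lines 2 rose and 3 fell in PC9, and the difference was positive for 2 and negative for 1. CCNB1, the mitotic cyclin B1, had 77.8, 72.5 and 72.4 CPM in PC9 paclitaxel libraries, against 135, 133 and 138 CPM in PC9 controls. In H1975 it had 227, 213 and 211 CPM under paclitaxel, against 176, 179 and 194 CPM in controls, higher in each treated library but not called, and the difference was −1.11 ± 0.15 (adjusted p = 5e-05). KIF20A, a kinesin of cytokinesis, fell in PC9 to 46.0, 44.5 and 47.6 CPM under paclitaxel, against 103, 88.3 and 102 CPM in controls, with a difference of −1.11 ± 0.21. PTTG1, the securin that holds back chromatid separation, differed by −1.07 ± 0.19, or −0.68 with the trend removed. Positive differences were seen in CENPF, a kinetochore protein (1.61 ± 0.47), the topoisomerase TOP2A (1.33 ± 0.41) and the spindle motor KIF11 (1.40 ± 0.39). These 3 did not hold in every leave-out, and with the trend removed they were 0.99, 0.63 and 0.70, still called. TOP2A was not called without the H1975 libraries that stood apart (adjusted p = 0.0617). The difference was positive for 4 and negative for 1 of the kinesin genes, 7 and 7 of the mitotic genes and 6 and 2 of the replication genes, against 9.9% and 7.21% of all genes tested. After removal of the trend 15 replication genes were positive and 1 was negative, and the median of the kinesin genes was 0.24, against 0.87 as fitted and −0.11 over the 9 expressed in both lines. Without H1975 control 3 the positive calls were 1, 1 and 3, and without PC9 control 3 they were 1, 1 and 2. Without H1975 paclitaxel 3 they were 2, 1 and 3. Mitotic and replication genes had 2 and 2 positive calls without H1975 paclitaxel 2, 4 and 3 without PC9 paclitaxel 1, and 3 and 3 without PC9 paclitaxel 2. Negative mitotic calls were 4 without H1975 control 3, PC9 control 3 or PC9 paclitaxel 2.

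Of 28 homologous recombination and checkpoint genes, 20 rose and 1 fell in PC9, against 21.5% and 16.3% of all genes tested, and none was called in H1975, where 1.83% of all genes were. The difference was positive for 11 and negative for 1, against 9.9% and 7.21%, with a median of 1.03, or 0.33 over the 12 expressed in both lines. EXO1, the exonuclease that resects DNA ends, had 18.7, 17.1 and 17.8 CPM in PC9 paclitaxel libraries, against 10.4, 7.24 and 6.37 CPM in PC9 controls, and differed by 1.48 ± 0.32. BRCA1, which directs repair by recombination, had 14.3, 16.6 and 14.1 CPM in PC9 paclitaxel libraries, against 6.27, 5.69 and 3.47 CPM in PC9 controls, and differed by 1.62 ± 0.42. The list's transcripts are long and poor in GC (medians of 3130 bases and 41.5%), and with the trend removed its median difference was 0.48, its median effect in PC9 was 0.54 against 1.10 as fitted, and 14 rose in PC9. The calls were then again 11 positive and 1 negative, and 6 were positive without H1975 control library 3, without H1975 paclitaxel library 3 or without PC9 control library 3. CHEK2, a checkpoint kinase, fell in PC9 to 38.5, 41.6 and 36.2 CPM under paclitaxel, against 69.5, 92.8 and 94.5 CPM in controls (difference −1.17 ± 0.17, adjusted p = 0.000133).

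**Figure D3:**
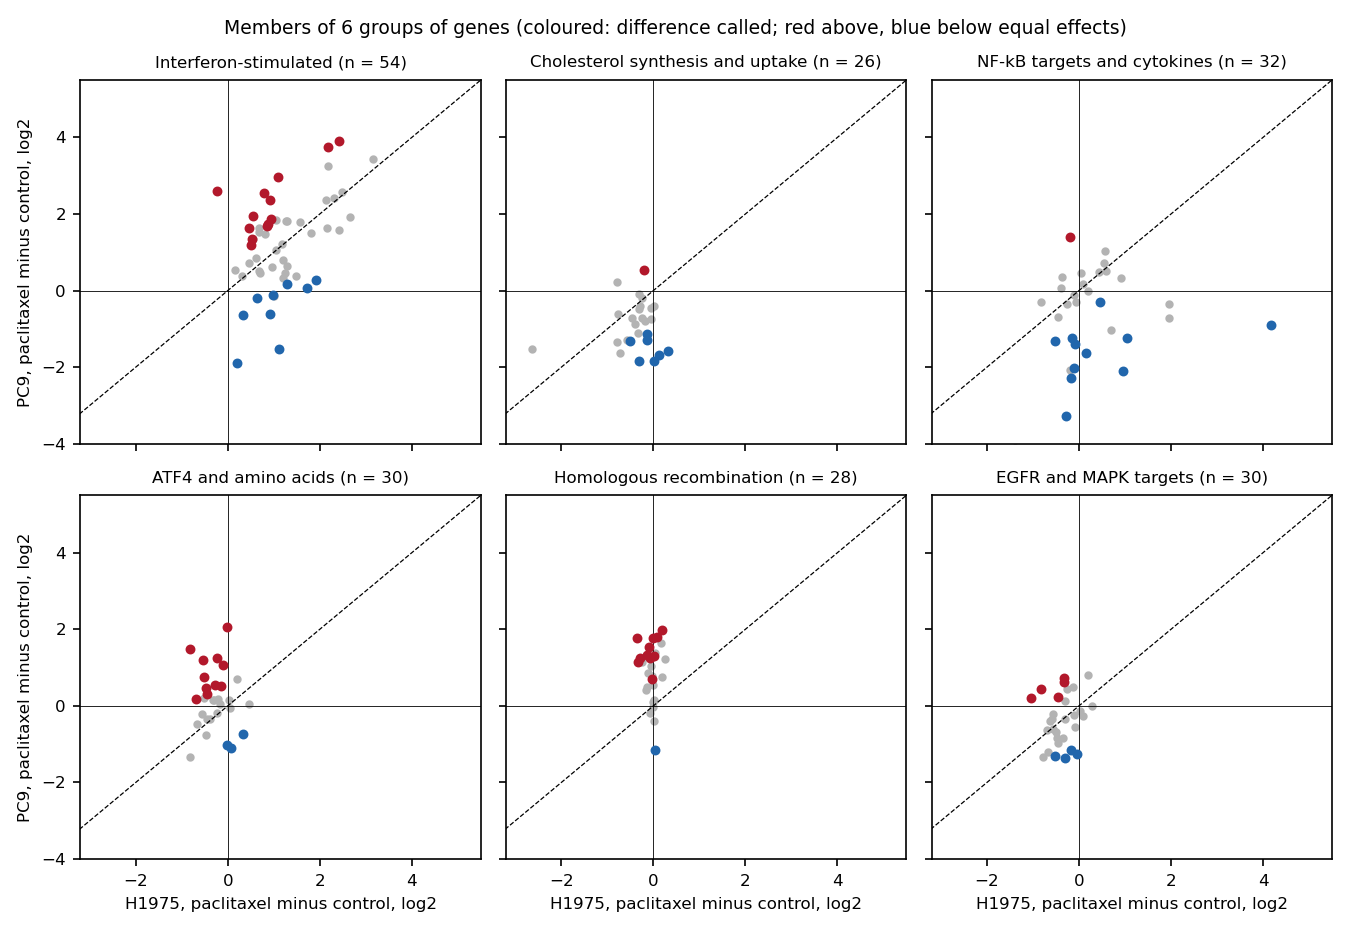
Measured members of 6 groups of genes, with the log2 paclitaxel effect in H1975 on the horizontal axis and in PC9 on the vertical axis. Coloured points were called for the difference, red above and blue below the dashed line of equal effects, and in the interferon panel the medians are above 0 on both axes (1.42 in PC9 and 1.02 in H1975).

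CDKN1A, the cyclin-dependent kinase inhibitor p21, had 72.0, 76.6 and 78.0 CPM in PC9 paclitaxel libraries, against 200, 274 and 271 CPM in PC9 controls. Levels in H1975 were 109, 120 and 120 CPM under paclitaxel, against 165, 139 and 113 CPM in controls, and the groups overlapped. The difference was −1.47 ± 0.29 (adjusted p = 0.00198). AEN, an apoptosis-enhancing nuclease, differed by −1.22 ± 0.23, and PLK2 by 0.75 ± 0.19, where the kinase fell in H1975 to 11.7, 11.5 and 9.88 CPM under paclitaxel, against 21.2, 23.0 and 21.4 CPM in controls. In the BCL2 family, PMAIP1, the proapoptotic protein NOXA, had 25.8, 23.6 and 22.1 CPM in PC9 paclitaxel libraries, against 42.7, 53.6 and 52.9 CPM in PC9 controls, and differed by −1.28 ± 0.21. BID, which links death receptors to mitochondria, differed by −0.98 ± 0.26, and no other of the 16 was called for the difference as fitted. Of all genes tested 9.9% were called positive and 7.21% negative. In the trend-removed fit 3 of the 16 were positive and 3 negative, and the median difference was 0.06, against −0.15 as fitted. BID was not called in every leave-out.

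Of 15 tubulin genes, some of whose products bind the drug, 1 rose and 6 fell in PC9, against 21.5% and 16.3% of all genes tested, and none was called in H1975. The median effects were −0.30 in PC9 and −0.13 in H1975. The median difference was −0.23, or −0.39 among the 10 expressed in both lines, and −0.01 over the list with the trend removed. DESeq2 and the fit of the 12 libraries alone each called 3 negative differences, and edgeR on all libraries called 1, against 17.1% of all genes tested. This was TUBB6 (−0.62 ± 0.21, adjusted p = 0.044), and it was not called with the trend removed (−0.16, adjusted p = 0.307). Tubulin paralogs are similar in sequence, so reads may be shared among them. Among 34 other microtubule regulators the difference was positive for 2, the coiled-coil protein TACC1 (1.31 ± 0.32) and the plus-end protein CLIP1 (1.11 ± 0.36), and negative for 1, the end-binding protein MAPRE2 (−1.25 ± 0.25), against 9.9% and 7.21% of all genes tested. In the trend-removed fit 8 were positive and 3 negative. TACC1 and CLIP1 were not called without the H1975 libraries that stood apart (adjusted p = 0.0558 and 0.116), and 6 were positive without H1975 paclitaxel 1 alone. Of 9 ABC transporter genes 5 rose in PC9 and 1 fell in H1975. The difference was positive for 3, or for 1 without H1975 control 3, H1975 paclitaxel 2 or 3, any single PC9 control or PC9 paclitaxel 1. ABCC1, the transporter MRP1, had 29.6, 25.1 and 26.98 CPM in H1975 paclitaxel libraries, against 37.4, 43.6 and 39.7 CPM in H1975 controls, and overlapped in PC9, with a difference of 0.55 ± 0.18 (adjusted p = 0.0409).

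Of 15 heat shock genes 4 had a negative difference and none a positive one, against 7.21% and 9.9% of all genes tested, led by the chaperone HSPA8, which fell in PC9 to 474, 471 and 480 CPM under paclitaxel, against 1100, 942 and 963 CPM in controls (difference −1.17 ± 0.20, adjusted p = 0.000684). HSPA1B, an inducible chaperone with a near-identical neighbour, differed by −1.39 ± 0.27. Glycolysis and hypoxia genes had 7 positive and no negative differences of 30, among them ALDOA (1.32 ± 0.35). The positive calls were 3 without both H1975 libraries that stood apart, 1 without H1975 control 3, 2 without H1975 paclitaxel 2, 3 without H1975 paclitaxel 3 or PC9 control 3, and 4 without PC9 control 1 or 2 or PC9 paclitaxel 1 or 2. FOXO targets had 6 positive and 4 negative of 18, a larger share than the 9.9% and 7.21% of all genes tested, with the muscle ubiquitin ligase FBXO32 at 1.20 ± 0.18 and the receptor adaptor IRS2 at 1.18 ± 0.25 against CITED2 at −1.46 ± 0.22. NRF2 targets had 2 positive and 3 negative of 26, with GCLC, the first enzyme of glutathione synthesis, at 1.20 ± 0.28. Differences were positive and negative for 1 and 2 of 19 ER chaperones, 4 and 1 of 28 ribosome biogenesis genes and 2 and 2 of 16 G1 regulators. In the trend-removed fit the positive differences were 5 of the NRF2, 8 of the ribosome biogenesis and 7 of the G1 regulator genes. Single libraries decided several of these small counts. The positive ribosome biogenesis calls were 1 without H1975 control 3, H1975 paclitaxel 2 or 3, PC9 control 2 or 3 or PC9 paclitaxel 1, and 2 without PC9 paclitaxel 2. The negative NRF2 calls were 1 without H1975 paclitaxel 3 or PC9 paclitaxel 1, and the positive G1 regulator calls were 1 without any single library other than H1975 control 2 or H1975 paclitaxel 1. No mitochondrially encoded gene of 13 was called for the difference as fitted. DESeq2 and the fit of the 12 libraries alone each called 1 as negative. Without H1975 paclitaxel library 1, the one with the high mitochondrial share, 2 were called as positive. Without both H1975 libraries that stood apart 1 was positive, and the median difference was 0.35, against −0.34 as fitted.

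**Figure D4:**
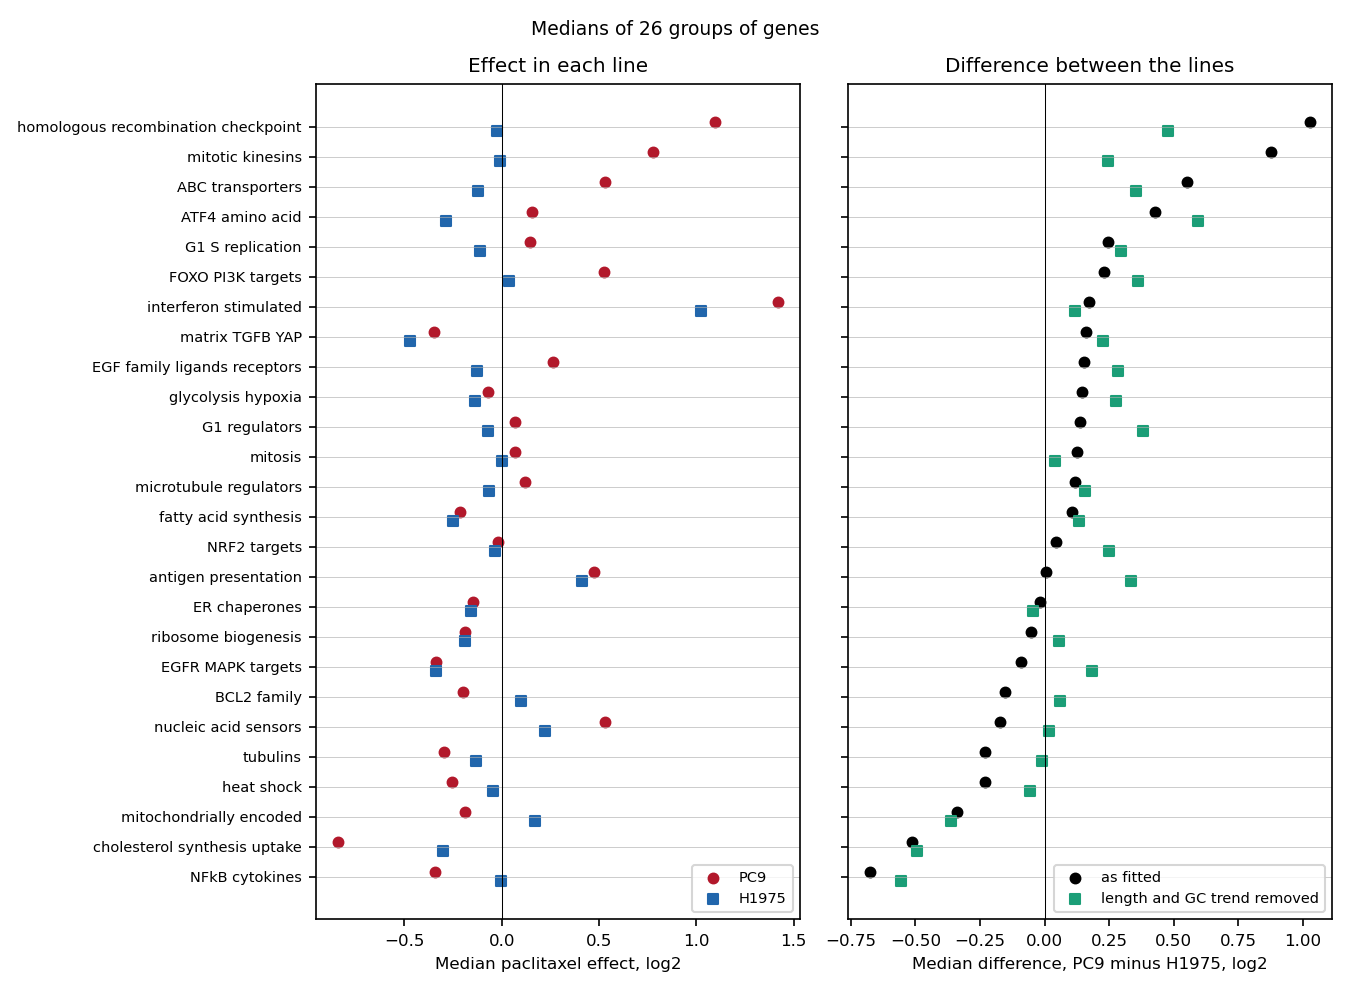
Medians of 26 groups of genes on the log2 scale. The left panel gives the paclitaxel effect in PC9 (red circles) and H1975 (blue squares), and the right panel the difference as fitted (black circles) and trend-removed (green squares), where homologous recombination moves to 0.48 and the cholesterol list stays near −0.5.

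Outside the genes expressed in both lines, 767 of 5223 tested genes were called for the difference. This is a smaller share than the 17.1% of all genes tested and the 18.7% of genes expressed in both lines. IFITM2 had 23.3, 26.4 and 26.6 CPM in PC9 paclitaxel libraries, against 2.46, 4.06 and 6.23 CPM in PC9 controls, and 150, 155 and 151 CPM in H1975 paclitaxel libraries, against 204, 197 and 137 CPM in H1975 controls (difference 2.84 ± 0.31). Its overlap with IFITM1 makes the share of reads uncertain. The others named there rest on counts near 0 in one line, and no fold is given. SLC2A10, a glucose transporter, had 0 raw counts in H1975 paclitaxel libraries and 6 in H1975 controls, AZGP1 20 in PC9 paclitaxel libraries and 2 in PC9 controls, and SPRR1A 7 in H1975 paclitaxel libraries and 4 in H1975 controls. SERPINA1 had 0 raw counts in PC9 paclitaxel libraries and 6 in PC9 controls, and UBE2M 0 and 9.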

How the data were processed

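The 24 libraries hold RNA of PC9 and H1975 cells in control, almonertinib, paclitaxel and combination groups. The authors deposited raw counts per Ensembl gene, whole numbers without normalisation. The submitters' processing notes name HISAT2 2.2.1, HTSeq and the build GRCh38. The counted strand and the annotation are not given in the sources used here, so antisense and overlapping genes may share reads. Symbols, positions, transcript lengths and GC content came from GENCODE v29 and NCBI tables (99.88% of tested genes had a length and GC value).

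Low counts were removed with filterByExpr, libraries were scaled by TMM, and an edgeR 4.0.16 (R 4.3.3) quasi-likelihood model with a term for each of 8 groups was fitted to all 24 libraries, so that groups share one estimate of spread. Two-sided p-values were Benjamini-Hochberg adjusted over all 13380 genes, and adjusted p under 0.05 was a call. CPM uses TMM-scaled library sizes, and ± after a log2 value is an approximate standard error. The method was tested on simulated data drawn around group means. There the H1975 paclitaxel means were set to carry the PC9 effect, and the PC9 paclitaxel means were altered in a random set of genes. The simulated data had no length and GC trend per library, so that test cannot tell how such trends affect the calls. The spread between libraries includes counting error, which weighs more in genes of low counts.

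Named were the 10 highest and 10 lowest differences among called, protein-coding genes expressed in both lines whose call held in every leave-out, up to 5 per direction of opposite effects, up to 2 called members per direction in each of 28 lists, and 3 per direction outside the genes expressed in both lines. Some of these genes, and 1 list, are not reported here. The members and the lists were chosen with earlier results of these data known. Libraries with the same number were checked for pairing: correlations of their deviations were 0.106, 0.104 and 0.0774 in PC9 and −0.345, 0.122 and −0.309 in H1975, and no label says that numbers are shared, so no pairing was assumed. No 2 columns were identical.

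Alternatives were scaling by RLE, testing with no filter or a stricter one, DESeq2 1.42.0, limma 3.58.1 voom with weights per line, the 12 libraries alone, the replicate number as a block, removal of a spline (5 degrees of freedom) on length and GC per library, other expression limits, and leaving out each library. Leaving out H1975 control library 3 and paclitaxel library 1 together was chosen after seeing the data.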

Additional observations from a re-analysis of the deposited data

Results flagged for a closer look

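The paclitaxel effects of the lines differed by the edgeR test of the difference for 1523 of 8157 genes expressed in both lines. Among the genes called in both lines with opposite signs, the differences (PC9 minus H1975, log2) of those that rose in PC9 and fell in H1975 were 1.58 for ADRA1B, 1.498 for PGF, 1.30 for MYRF, 1.28 for PSAT1 and 1.24 for CKB. Those of genes that fell in PC9 and rose in H1975 were −2.96 for C15orf48, −2.63 for OASL, −1.89 for CIART, −1.53 for ISG15 and −1.43 for CEBPD. Dose differed with line in each of them. Groups of 3 libraries were too small for a test of single outlying samples.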

How the results depend on the processing

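No named call changed sign under any alternative. Of 103 named calls, 99 stayed past the threshold with RLE factors, with DESeq2 and with the trend removed, 101 without a filter, 102 with a stricter filter, 100 with limma, 103 with the 12 libraries alone, 89 without both H1975 libraries that stood apart, and 83 to 101 when one library was left out. Genes named by size or for opposite effects were chosen for holding in every leave-out, so their share of that tally was fixed beforehand. List members were chosen by smallest p. Of all 1523 calls among genes expressed in both lines, 612 held in every leave-out, so the named calls do not stand for the rest. The replicate number as a block kept 103 of 103 and moved the calls among genes expressed in both lines to 1642. Same-numbered libraries correlated best with each other in all 3 PC9 pairs but not in H1975.

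Counts moved more. With the trend removed the difference was called for 3658 genes, for 2750 of those expressed in both lines and positive for 1588 of these, and the H1975 effect for 937. With the replicate block as well these were 3686, 2794, 1648 and 956. DESeq2 called 1232 negative differences among genes expressed in both lines, the 12 libraries alone 1326 positive ones, and limma 82 H1975 effects. Without both H1975 libraries that stood apart 451 were positive. With a control mean of at least 20 CPM the difference was called for 762 genes, 249 positive and 513 negative. Leaving out one library gave 1114 to 2980 differences over all genes, 744 to 2099 among genes expressed in both lines (296 to 1003 positive, 448 to 1096 negative), 3413 to 5343 PC9 effects and 106 to 344 H1975 effects. The lowest counts of differences came without H1975 control library 3 and the highest without H1975 paclitaxel library 1. The cause of these shifts was not tested. Where a leave-out leaves 2 libraries in a group, its spread is estimated with the other groups.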
